A study of Caenorhabditis elegans with 2 samples.

Results

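The ceh genes are the homeobox genes of Caenorhabditis elegans that carry the ceh name (C. elegans homeobox). All 63 protein-coding genes whose annotated name begins with ceh- were taken, of 19973 protein-coding genes on the 6 nuclear chromosomes of WBcel235. Each was examined for peaks of HAM-2, a zinc-finger protein required in the HSN motor neurons. For each gene the window began 2000 bp before the annotated 5′ end and closed at the gene's far end, and the strongest peak summit in it was read from every deposited list.

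ChIP-seq (sequencing of immunoprecipitated chromatin) was run on whole embryos of strain OP639, with biological replicates 6 and 7 as the only group. The strain carries the integrated array wgIs639, in which ham-2 is fused to TY1, EGFP and 3xFLAG beside unc-119(+), in an unc-119 (tm4063) background; chromatin was sonicated to 200 to 800 bp. Embryos were of mixed sex and mixed stage, with a labelled age of 3 hours and synchronization by egg bleaching, and an antibody against GFP was used. No second condition or strain exists in the design, so no test between groups could be made. Binding confined to few cells of a whole embryo and weak binding in many cells cannot be told apart. The authors' reproducible list, made with the irreproducible discovery rate (IDR), holds 1945 peaks. The list from both replicates pooled holds 30000 peaks, and those of replicates 6 and 7 hold 28414 and 30000, background included. The peak signal is the authors' own value, and it was compared only within a list. Its rank in the list is given beside it, with rank 1 the strongest. The lowest signal in the reproducible list was 105.3, and the median of the pooled list was 40.29.

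Homeobox genes encode transcription factors that bind DNA through a homeodomain, a helical fold that recognises short AT-rich sites. In C. elegans they pattern the embryo along its axes and in its lineages, and combinations of them specify the identities of neuron classes. Homeodomains fall into classes, among them the Hox proteins, their PBC cofactors, and the LIM, POU, sine oculis, CUT and paired-like proteins. The values are ordered by class after the overall counts.

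The strongest pooled summit with 50 bases on either side is shown for 6 genes, each as the plus strand of the genome (RefSeq, WBcel235). They are both genes with a reproducible summit, the next 3 in pooled signal, and ceh-87 for its repeats. Capitals mark exact matches, on either strand, to any of 5 words that were searched: TAATTA (a homeodomain core pair), GAGAGA (a GA repeat), TTAGGC (the worm telomere repeat), CACGTG (an E-box) and TGATTGAT (a site of PBC and Hox pairs).
ceh-20, chrIII:6978908-6979008: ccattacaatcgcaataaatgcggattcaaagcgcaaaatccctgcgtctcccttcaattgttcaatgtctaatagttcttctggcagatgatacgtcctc
ceh-43, chrIII:4451165-4451265: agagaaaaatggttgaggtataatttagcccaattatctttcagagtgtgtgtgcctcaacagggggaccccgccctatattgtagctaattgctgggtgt
ceh-58, chrII:10371100-10371200: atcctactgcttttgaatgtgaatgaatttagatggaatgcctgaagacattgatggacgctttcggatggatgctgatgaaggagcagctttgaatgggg
ceh-21, chrX:1850705-1850805: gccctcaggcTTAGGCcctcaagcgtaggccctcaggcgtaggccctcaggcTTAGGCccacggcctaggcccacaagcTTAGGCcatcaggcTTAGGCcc
ceh-32, chrV:11705656-11705756: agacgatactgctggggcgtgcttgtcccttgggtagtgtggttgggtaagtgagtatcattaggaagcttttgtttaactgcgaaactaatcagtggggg
ceh-87, chrII:2684954-2685054: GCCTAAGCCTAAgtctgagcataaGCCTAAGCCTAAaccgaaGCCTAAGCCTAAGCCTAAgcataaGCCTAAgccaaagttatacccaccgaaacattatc

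The window at ceh-20 has none of the 5 words, nor have those at ceh-43, ceh-58 and ceh-32. Over the whole peaks of 420 bp, ceh-20 has 1 TGATTGAT, ceh-43 has 3 copies of GAGAGA and ceh-58 has 4. GAGAGA was in the whole peaks of many other ceh genes, with 3 copies at the weak summit of ceh-34 (pooled signal 37.21). Whole peaks of the pooled list at large were not searched, so no share stands beside these. The window at ceh-21 holds 4 copies of TTAGGC, spaced apart within a longer GC-rich repeat. The window at ceh-87, in an intron of sup-9, holds 8 copies of the same word on the other strand, most of them in tandem. That summit was weak, with a pooled signal of 39.42 (rank 15728), and neither replicate had a summit within 100 bp of it. A match describes these letters only.

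Few ceh genes carried a reproducible HAM-2 summit, and many carried a weaker one. Reproducible summits lay in the windows of 2 of 63 genes (3.17%), ceh-20 and ceh-43, against 9.0% of all protein-coding genes. With 5000 bp upstream the count was 8 (12.7%, against 13.2%), and among 2 times as many pooled peaks the direction turned, with 13 (20.6%, against 15.9%). The windows of the ceh genes were somewhat longer, with a median of 4652 bp against 4027 bp, and held 0.579 reproducible summits per 100 kb against 1.99. Of the other 61 genes, 12 were weak and coincident, which means that the strongest summits of both replicates lay at most 100 bp apart without a reproducible summit in the window. The grade holds 9.96% of all genes. A further 40 (63.5%, against 60.8% of all genes) had summits in at least 1 list without such coincidence. The remaining 9 (14.3%, against 20.3%) had no summit in any list. Counted with the reproducible genes, the replicates' strongest summits coincided in 14 genes (22.2%, against 17.4% of all genes), or 36.8% of the 38 genes with a summit from both replicates, against 32.8%. Counting any replicate summits within 100 bp of the strongest pooled summit instead, the direction turned, with 17 genes (27%, against 28.4%).

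**Figure D1:**
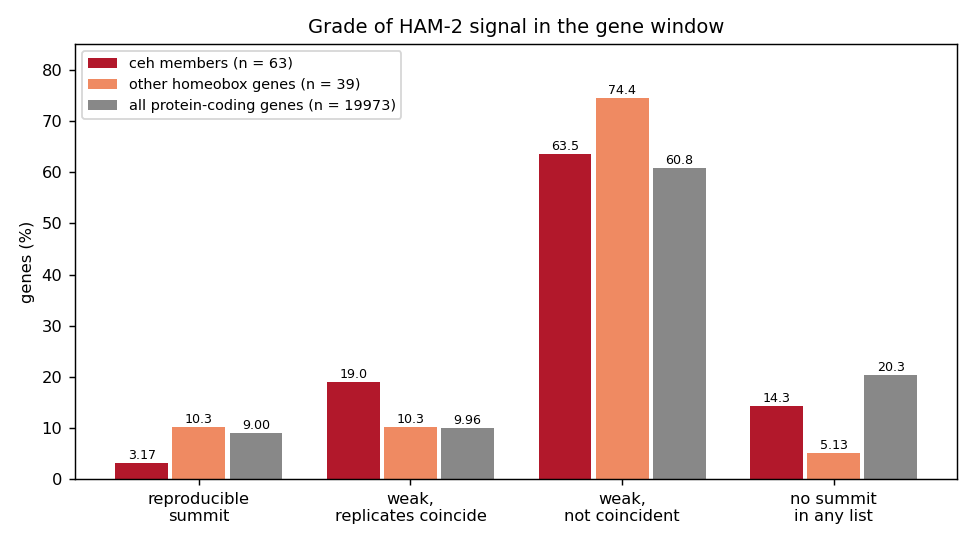
Share of genes (%, vertical axis) in each grade of HAM-2 signal, for the 63 ceh genes, the 39 homeobox genes of other names and all 19973 protein-coding genes. Reproducible summits are rarer among ceh genes (3.17%) than among all genes (9.0%), and weak coincident summits are more frequent (12 of 63, against 9.96%), with the window and lists used. No test was made.

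In the pooled list 46 of 63 genes (73.0%, against 64.0% of all genes) had a summit in the window. Their strongest signals ran from 27.42 to 210.9 with a median of 53.13, against a median of 49.50 over all genes with a summit. The median was also above that of all genes in replicate 6 (35.32 against 30.26), but below it in replicate 7 (24.87 against 26.83). Summit density was alike, at 30.7 pooled summits per 100 kb of ceh window against 31.6. Many of the stronger genes ranked below the reproducible list but within 2 times its number of peaks. Within the 3890 strongest pooled peaks lay the best summits of 13 ceh genes (20.6%, against 15.9% of all genes). Ranks 1946 to 3890 alone held those of 11 (17.5%), against 6.90% of all genes, a range of ranks chosen after the values were seen. The members nearest to the lowest reproducible signal were ceh-43 above it, with a pooled signal of 143.8 at rank 1075, and ceh-58 below it, with 99.44 at rank 2149.

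**Figure D2:**
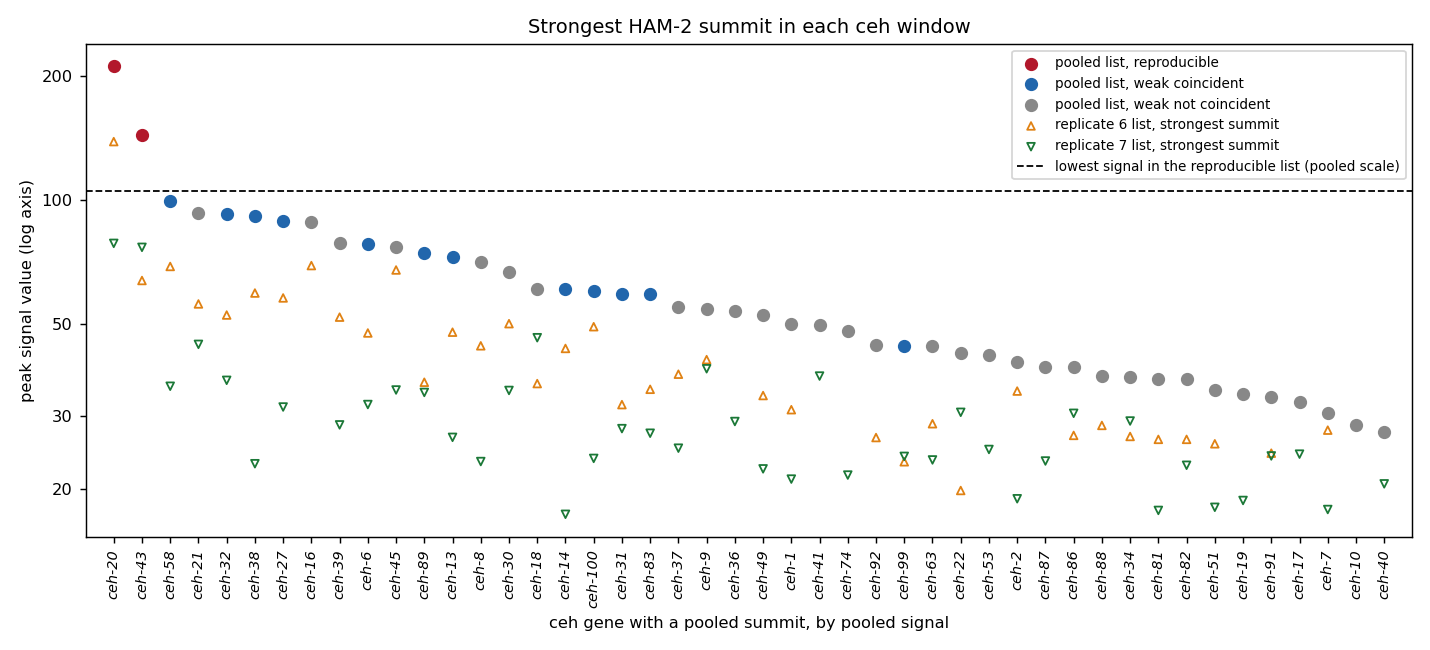
Peak signal value (log axis) of the strongest summit in the window of the 46 ceh genes with a pooled summit, ordered by pooled signal; filled circles are the pooled list, open triangles the replicate lists, which have scales of their own. The 2 reproducible genes, at 210.9 and 143.8, stand above the dashed line at 105.3, and 11 genes lie between it and 72.94.

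The strongest HAM-2 summit of the family lay upstream of ceh-20, which encodes the worm Extradenticle or Pbx protein, a cofactor of Hox proteins. The gene (WBGene00000443) spans 6979884 to 6981785 on the plus strand of chromosome III, and the reproducible peak runs from 6978748 to 6979167. Its signal was 210.9 in the pooled list (rank 505), 138.6 in replicate 6 (rank 466) and 78.55 in replicate 7 (rank 539). The summits lay 926 bp upstream of the annotated 5′ end in the pooled list, 940 bp in replicate 6 and 903 bp in replicate 7, so all 3 lists place it within 37 bp. No other protein-coding gene's window held this summit. A second pooled summit, 725 bp upstream with a signal of 39.20, had a counterpart in replicate 6 but not in replicate 7. The other PBC genes showed little. For ceh-40 there was a pooled summit of 27.42 (rank 29548) near its 5′ end, with a replicate 7 counterpart of 20.53 and no summit in replicate 6. The window of ceh-60, a regulator of yolk protein genes, was empty in every list over 9551 bp.

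At ceh-43, the worm Distal-less gene, which acts in the anterior epidermis and in dopaminergic neurons, both replicates placed peaks at several points. The gene (WBGene00000463) spans 4446638 to 4449943 on the minus strand of chromosome III. Its reproducible peak, from 4451005 to 4451424, peaks 1272 bp before the 5′ end, within the noncoding RNA gene C28A5.8. The signal was 143.8 in the pooled list (rank 1075), 63.85 in replicate 6 (rank 2193) and 76.83 in replicate 7 (rank 567), with the replicates' summits 21 bp apart. The rank was thus within the strongest 1945 of replicate 7 and outside those of replicate 6. Of its 6 pooled summits, 5 (83.3%) were matched within 100 bp in both replicates, against 29.8% of the whole pooled list. The matched summits had pooled signals of at least 52.04, above that list's median of 40.29, so these shares cover unlike ranges of signal. Of those 5, 4 lay in introns, at 401, 1625, 2174 and 2846 bp from the 5′ end, with pooled signals of 56.58, 52.04, 80.50 and 78.68.

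**Figure D3:**
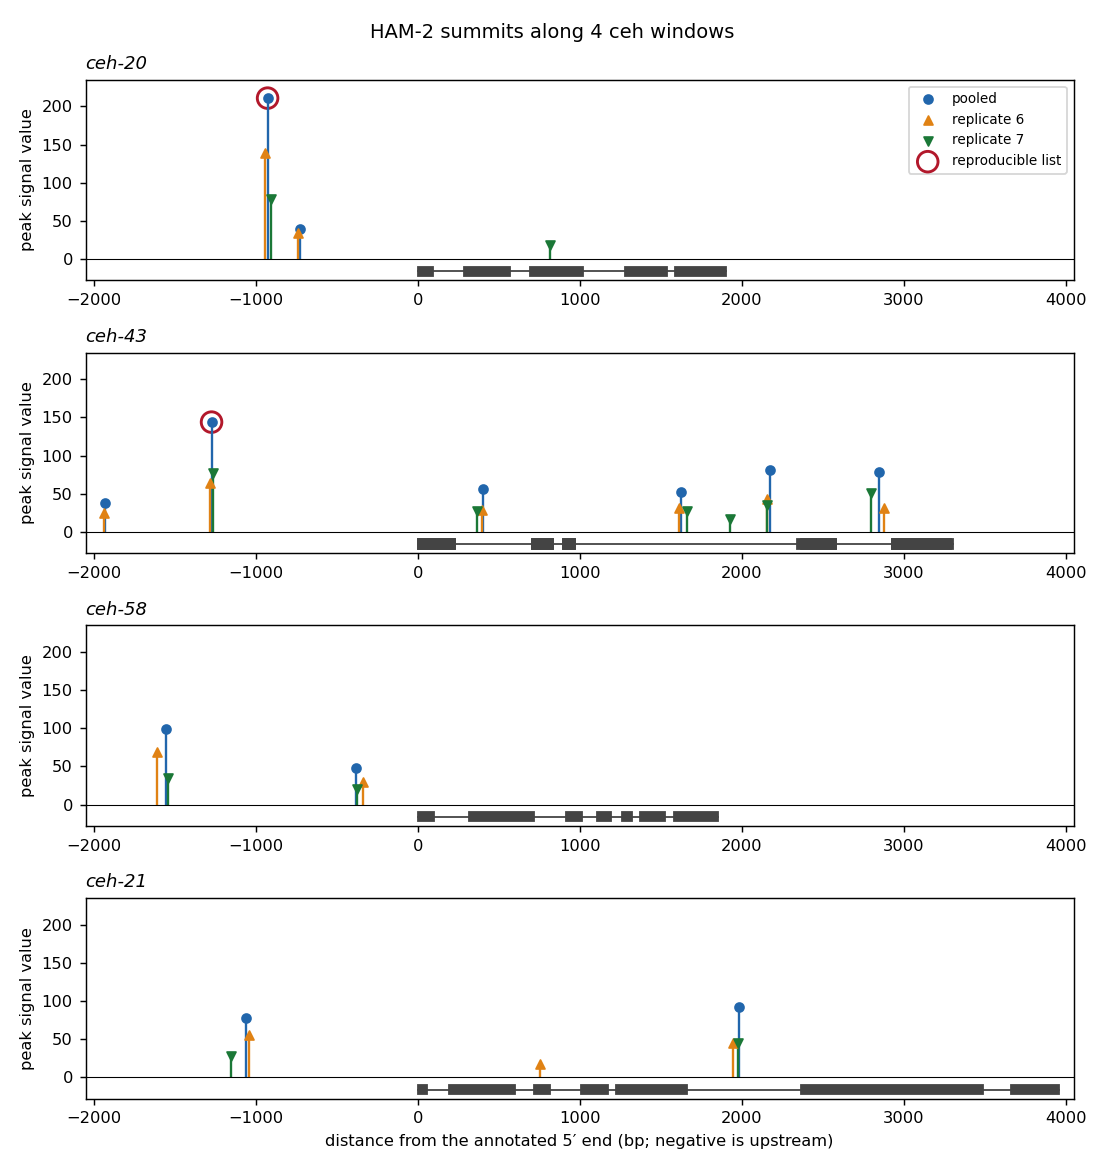
Summits of the pooled list (circles), replicate 6 (upward triangles) and replicate 7 (downward triangles) by distance from the annotated 5′ end (bp) and peak signal value, with exons of all transcripts as dark boxes and a ring on reproducible summits. At ceh-20 all lists place the main summit between 940 and 903 bp upstream; at ceh-43 both replicates follow the pooled summits at 5 places; ceh-58 and ceh-21 have matched summits under the reproducible level.

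The other NK-related and Antennapedia-superclass genes carried weak signal or none. With ceh-43 the class has 19 genes, of which 13 had a pooled summit, with a median signal of 50.11. For ceh-27, an NK-family gene, the pooled signal was 88.94 at 38 bp upstream. Replicates 6 and 7 gave 57.93 (rank 2587) and 31.52 (rank 5931), 48 bp apart. The engrailed gene ceh-16, which acts in the lateral seam epidermis, had a single pooled summit of 88.58 at 1505 bp upstream. Replicate 6 held it at 69.39 (rank 1870, within its strongest 1945), and replicate 7 had no summit in the window. The neighbouring Bar-family genes ceh-30 and ceh-31 each had 4 pooled summits, the strongest 136 and 236 bp upstream at 67.05 and 59.20. At ceh-31 the replicates coincided within 19 bp, at 31.94 in replicate 6 and 27.94 in replicate 7. At ceh-30 they lay 114 bp apart, at 50.18 and 34.57, just past the limit of 100 bp. A weaker pooled summit of ceh-30, 56.79 at 1800 bp upstream, was matched in both replicates. Replicate 6 had 20.17 at 1806 bp upstream and replicate 7 had 31.21 at 1801 bp upstream. The pharyngeal muscle gene ceh-22 had a pooled signal of 42.49, with the replicates' strongest summits 2701 bp apart.

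Among the CUT genes, ceh-38, which acts with others of its class in the expression of panneuronal genes, had a coincident summit at its 5′ end. It lay 74 bp inside the first exon and 300 bp upstream of malt-1, with a pooled signal of 91.51. Replicates 6 and 7 gave 59.54 (rank 2468) and 22.97 (rank 14292), 34 bp apart, so the second stood near the median of its list, 22.49. The neighbours ceh-39, ceh-21 and ceh-41 lie in a row on the minus strand of chromosome X. The strongest summit of ceh-21 (WBGene00000444, 1848779 to 1852736) was in its intron 5, over the TTAGGC matches printed above, with a pooled signal of 92.97 (rank 2446). Replicate 6 held that summit at 45.33 and replicate 7 at 44.71. Replicate 6 had a stronger one of 56.02 upstream, at 1040 bp, so the strongest summits of the replicates lay 3020 bp apart. At ceh-39, an X-linked signal element of sex determination, the pooled signal was 78.85 at 218 bp upstream. Replicate 6 gave 52.04 at the same base and replicate 7 gave 27.20 at 254 bp upstream, below its 28.53 inside the gene. That summit of 28.53 lies near the far end of ceh-39 and is also counted for ceh-21, at 1153 bp upstream. The pooled summit of ceh-41, 49.80 inside an exon, had a counterpart of 37.46 in replicate 7 and none in replicate 6. The window of ceh-48 was empty, and that of ceh-49 had a pooled maximum of 52.56. No gene of the annotation bears the name ceh-44.

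The sine oculis genes were led by ceh-32, which acts in head morphogenesis. Its pooled signal was 92.47 (rank 2478) at 306 bp upstream of the 5′ end, in a peak from 11705496 to 11705915 on chromosome V. Replicate 6 gave 52.66 (rank 3053) and replicate 7 gave 36.58 (rank 3759), 96 bp apart, close to the limit for coincidence. For ceh-34, needed for pharyngeal neuron identities, the pooled signal was 37.21, and its neighbour ceh-33 had no pooled summit.

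Coincident summits were found at the 1 ceh gene classed as Hox, the 1 classed as LIM and 1 of the 2 classed as POU. Over all genes the share was 17.4%, and these classes are too small to set beside it. The labial-type Hox gene ceh-13 had a pooled signal of 72.94 (rank 3890) at 703 bp upstream. Its replicates agreed to within 2 bp, with signals of 47.85 and 26.61. At ceh-14, a LIM gene of sensory and interneurons, the summit lay in an exon. It was 4672 bp from the gene's 5′ end and 2489 bp from that of F46C8.3. Its pooled signal was 60.83 and the replicates' summits were 8 bp apart, but replicate 7 had only 17.32 there (rank 25541). The POU gene ceh-6, which acts in the excretory cell, had a pooled signal of 78.20 in an exon 142 bp from the 5′ end. Replicates 6 and 7 gave 47.64 and 31.96 there, 9 bp apart. At the other POU gene, ceh-18, the replicates differed. Replicate 7 had its strongest summit, 46.40 (rank 1887), 12884 bp into the gene, and replicate 6 had its own, 35.92, at 1076 bp upstream.

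None of the 8 paired-like genes was reproducible or coincident, where 9.0% and 17.4% of all genes were. A class of 8 genes is small to set beside such shares. Their pooled signals ran from 28.51 to 76.96 in the 7 genes with a summit. The highest was that of ceh-45, the goosecoid gene, 1482 bp upstream. Replicate 6 had 67.71 at 1547 bp upstream (rank 1964). Replicate 7 had 24.63 at 1366 bp upstream, over 100 bp from the pooled summit, and its strongest, 34.66, 1545 bp inside the gene. A weaker pooled summit of ceh-45, 53.08 at 30 bp upstream, was matched in both replicates. Replicate 6 had 24.02 at 32 bp upstream and replicate 7 had 28.73 at 47 bp upstream. The strongest pooled summit at ceh-8 (70.96) lay in its last part, 5275 bp from its 5′ end and 710 bp upstream of the collagen gene col-63. For ceh-37 and ceh-36, both of the Otx type, the pooled signals were 55.00 and 53.71. For ceh-53 and ceh-17 they were 42.17 and 32.41. The single pooled summit of ceh-10, a Chx10-type gene of interneurons, had 28.51 and no counterpart in any replicate. The window of ceh-54 had none in the pooled list.

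The 20 genes given no class here included ceh-58, the strongest gene without a reproducible summit. Its pooled signal was 99.44 (rank 2149) at 1553 bp upstream, with 69.05 in replicate 6 (rank 1888) and 35.39 in replicate 7 (rank 4186), 68 bp apart. The deposited −log10 q-value of this peak was 3.64, the value that all reproducible peaks share. Its weaker pooled summit, 47.60 at 378 bp upstream, was also matched in both replicates. At ceh-89 the replicates named the same base, 509 bp upstream, with 36.19 and 34.19 and a pooled signal of 74.51. At ceh-100 (60.13), ceh-83 (59.19) and ceh-99 (44.40) the replicates were 69, 65 and 1 bp apart. The summit given to ceh-100 lies in an exon of lips-15, 226 bp from that gene's 5′ end. That of ceh-99 lies 1714 bp upstream of srx-118, whose 5′ end is nearer.

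Coincidence within 10 bp was met in 5 of the 12 weak coincident genes and in 380 of 1989 such genes overall. The pooled signal of the 12 ran from 44.40 to 99.44 with a median of 73.73, against 63.94 over all weak coincident genes. Those of the 32 genes with a pooled summit but no coincidence had a median of 43.36.

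No summit in any of the 4 lists was found for ceh-12, ceh-28, ceh-48, ceh-57, ceh-60, ceh-75, ceh-76, ceh-84 and ceh-90. Among them are ceh-12, the HB9-type gene of motor neurons, and ceh-28, which acts in a pharyngeal neuron. Their windows had a median of 3659 bp, shorter than the median of all ceh genes. Another 8 genes had summits in a replicate list but not in the pooled one. For ceh-33, ceh-5, ceh-54 and ceh-93 both replicates had a summit, and their strongest ones lay from 573 to 2933 bp apart. At ceh-54 a weaker replicate 7 summit of 22.92, 1515 bp inside the gene, lay near the replicate 6 summit of 22.61 at 1530 bp. For ceh-62 it was only replicate 6, with 28.04, and for ceh-23 (27.55), ceh-79 (20.34) and ceh-24 (16.10) only replicate 7. At this depth, which the sources used here do not give, an empty window does not show that HAM-2 is absent.

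The place of the strongest summit differed between the lists. Of the 46 strongest pooled summits, 28 (60.9%) were upstream of the annotated 5′ end, 10 (21.7%) in exons and 8 (17.4%) in introns, against 53.9%, 25.1% and 21% over all genes with a pooled summit. In replicate 6 the strongest summit was upstream in 24 of 42 ceh genes (57.1%, against 55.6% of all genes with a summit there). In replicate 7 it was upstream in 21 of 49 (42.9%, against 48.2%), so the direction against all genes turned. Of all 106 pooled summits in the ceh windows, 44 (41.5%) were upstream. Of the 28 strongest pooled summits upstream, 10 were within 500 bp of the 5′ end (35.7%, against 35.3%). Both reproducible summits were upstream, where 68.9% of those of all reproducible genes were. Of the 12 weak coincident genes, 8 had theirs upstream (66.7%, against 1150 of 1950 genes overall) and the other 4 in exons. The nearest annotated 5′ end was the gene's own for 38 of 46 (82.6%, against 68.6%). The exceptions include ceh-82, which shares its summit with the adjacent ceh-81, and ceh-7, whose summit lies in an exon of prx-5. A tRNA gene lay within 250 bp of the summit at ceh-2, and no other strongest pooled summit of a ceh gene was that near a short noncoding gene of the tRNA, snRNA, snoRNA, rRNA or miRNA classes.

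**Figure D4:**
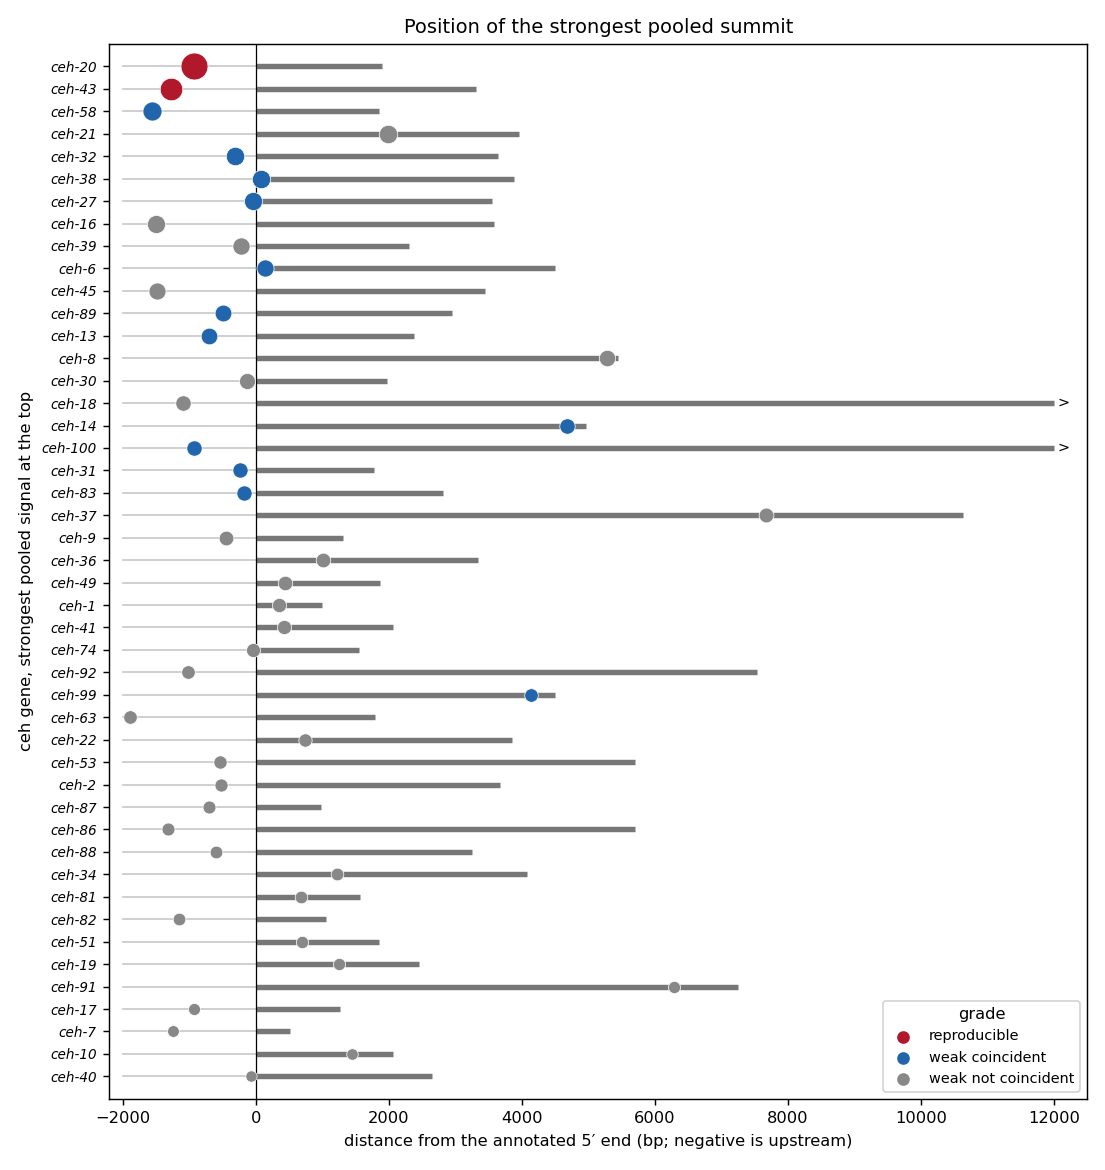
Distance of the strongest pooled summit from the annotated 5′ end (bp) for the 46 ceh genes, with the upstream 2000 bp as a thin line, the gene as a thick line and the circle's area growing with pooled signal; > marks 2 genes longer than the axis. Both reproducible genes and 26 others have their summit upstream.

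Pooled summits of the ceh windows were matched in both replicates at a share near that of pooled summits at large, and no test was made. In all, 106 pooled summits were counted over the ceh windows, with those in overlapping windows counted for each gene. Of these, 28 (26.4%) were matched within 100 bp in both replicates, 60 (56.6%) in one and 18 (17%) in neither, against 29.8%, 55.6% and 14.6% of the pooled list. Of the strongest summit of each gene, 17 of 46 (37%) were matched in both, against 44.3% over all genes.

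Like every chromosome but III, chromosome X had no reproducible summit among its members, which were the most of any chromosome. Of the 18 ceh genes there, 0 had one, where 13.1% of all protein-coding genes of chromosome X did. Their highest pooled signal was that of ceh-21. Both reproducible genes are among the 8 members on chromosome III, where 11.6% of all genes had a reproducible summit. The highest pooled signals of the members on chromosomes I, II, IV and V were 78.20, 99.44, 42.17 and 92.47.

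Homeobox genes of other names included more with a reproducible summit, in longer windows. Of 39 such genes, with a median window of 6858 bp, 4 (10.3%, near the 9.0% of all genes) had one. The strongest was in unc-62, which encodes the Meis or Homothorax-type partner of CEH-20. It lay in an exon 10584 bp from the 5′ end with a pooled signal of 468.5 (rank 79), 265.2 in replicate 6 (rank 91) and 194.7 in replicate 7 (rank 66). It is nearer to the 5′ end of T28F12.1. The others were zfh-2 (122.3), dve-1 (113.3) and the eye-pathway Pax gene vab-3 (106.7), each in an intron. At zfh-2 and dve-1 both replicates had a summit within 100 bp of the pooled one. At vab-3, close to the lowest reproducible signal of 105.3, replicate 6 had one of 82.39 and replicate 7 had none that near. Density was 2.53 reproducible summits per 100 kb in the windows of these 39 genes and 0.579 in the ceh windows. Of those 8 summits, 6 were in unc-62 and zfh-2, and the other 37 genes had 0.748 per 100 kb. Weak coincident summits were found in 4 of the 39 (10.3%), and pooled signals had a median of 56.45.

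Within 50 bases of the strongest pooled summits, the median GC content was 44.1% over the 46 ceh summits, 42.6% over all 30000 pooled summits and 49.5% over the 1945 reproducible ones. TAATTA was found in 1 of 46 (2.17%, against 3.21% of pooled summits), at ceh-10, and GAGAGA in 4 of 46 (8.70%, against 9.89%). GAGAGA was in 25.1% of the reproducible windows. CACGTG was in 0 of 46 and so was TGATTGAT, against 2.54% and 0.610% of pooled windows. Over the whole peaks CACGTG was found at ceh-39, and TGATTGAT at ceh-20, ceh-18 and ceh-14. TAATTA was found over them at ceh-16, ceh-8, ceh-100, ceh-88 and ceh-10, and GAGAGA at many ceh genes. For whole peaks no share over all pooled peaks was counted. TTAGGC was in 5 of 46 (10.9%, against 5.70%), at ceh-45, ceh-9, ceh-87, ceh-21 and ceh-51. The first 4 of these had 4 or more copies, with 11 at ceh-45, 11 at ceh-9, 8 at ceh-87 and 4 at ceh-21. That is 8.70% of the 46 windows, against 1.75% of all pooled windows and 4.83% of reproducible ones, and the minimum of 4 copies was chosen after the values were seen. How such repeats bear on the signal at these 4 genes was not tested. The 46 are the strongest summits of their genes (median signal 53.13), with that shared by ceh-81 and ceh-82 counted for each. The pooled windows are all summits of that list (median 40.29), so the shares here cover unlike ranges of signal.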

How the data were processed

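Peak lists from ChIP-seq of 2 embryo libraries (replicates 6 and 7 of 1 group) were used as deposited. Per the labels and the deposited readme text, the assembly is ce11 and the authors made the replicate and pooled lists from alignments of these libraries and 1 further file, not analysed here. Which aligner and peak caller were used, and how deep the libraries are, the sources used here do not say, and precision therefore cannot be stated. The signal (column 7) and the −log10 q-value (column 9) are the authors' own as deposited. All 1945 reproducible peaks are the 1945 strongest of the pooled list. In all 24 pairs of list and chromosome the last peak ended inside the WBcel235 chromosome, and 10 mitochondrial peaks were left out. Summits were placed on Ensembl release 115 genes, with positions counted from 1, using Python 3.11.15, numpy 2.4.6, pandas 2.3.3 and matplotlib 3.10.9. Assignment was checked on planted summits. The ceh genes, class lists and grades were chosen with earlier results of these data known. Genes named are those with a reproducible summit, the 10 strongest, empty windows, the strongest of each class and the listed homeobox genes with reproducible summits; others were chosen after their values were seen. Whether the replicates came from separate cultures is not stated beyond their label as biological.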

Additional observations from a re-analysis of the deposited data

How the results depend on the processing

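The count of ceh genes with a reproducible summit depended on the window and the list. It was 2 with the window used, 1 with 1000 bp upstream, 1 with 1000 bp upstream to 200 bp downstream of the 5′ end, and 8 with 5000 bp upstream, beside 7.08%, 4.60% and 13.2% of all genes. It was 1 in the upper 50% of the reproducible list (4.73% of all genes) and 13 among 2 times as many pooled peaks (15.9%). The gene lost in each setting with 1 was ceh-43. Taken from the strongest 1945 peaks of a single replicate, the count was 3 without replicate 6 (ceh-20, ceh-43, ceh-18; 8.72% of all genes) and 3 without replicate 7 (ceh-20, ceh-58, ceh-16; 9.11%). Counting any overlap of the peak interval gave 3, with ceh-48 added (9.55% of all genes). The ceh share was below that of all genes in 9 of these 10 alternatives. The 8 alternatives for coinciding replicate summits gave 10 to 18 genes (all genes 11.9% to 28.4%), and the 7 for upstream summits gave 20 to 38 (22.7% to 54.5%), each within 1.5 times the count reported. As shares of all 63 genes these were above all genes in 7 of 8 and 7 of 7. For upstream summits without replicate 6 these shares were near each other, at 33.3% against 32.8%. Among genes with a summit in replicate 7, the ceh share was below that of all genes, at 42.9% against 48.2%. The median strongest signal ran from 24.87 without replicate 6 to 35.32 without replicate 7 (all genes 26.8 and 30.3), which are list scales of their own, and was 50.04 to 59.20 in the other 5 settings. No paired analysis was possible because there is 1 group. The settings were listed at the start, except that of any replicate summits at the strongest pooled summit (17 genes, against 28.4% of all genes), the exception among the 8, which was added after the data were seen.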

Other observations

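Reproducible summits outside the window lay within 5000 bp upstream of 6 further ceh genes. For ceh-58 it was 4126 bp upstream (signal 186.8, rank 641), with ceh-58 as the nearest 5′ end. For ceh-48, whose own window was empty, it was 2158 bp upstream (signal 160.2, rank 881), again with ceh-48 nearest, and the peak, from 6809740 to 6810159, reached into the window although its summit did not. At ceh-39 (2662 bp, 175.1), ceh-63 (4739 bp, 158.7), ceh-5 (4728 bp, 312.8) and ceh-24, a gene of pharyngeal and vulval muscles (4469 bp, 483.7), another gene's 5′ end was nearer, namely that of T26C11.8, tag-52, eat-16 and swan-1. The median distance from a 5′ end to the nearest reproducible summit on either side was 24866 bp for ceh genes and 23150 bp for all protein-coding genes.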
